A study of Mus musculus with 19 samples.

Results

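H3K27me3 and H3K9me3, both trimethylation marks on histone H3, were compared in unperturbed mouse embryonic stem cells (ESCs) by chromatin immunoprecipitation sequencing (ChIP-seq). The comparison used the control libraries alone, 3 of H3K27me3 (d4.1, d8.1 and d8.2) and 3 of H3K9me3 (d4.1, d8.1 and d8.2), which are 6 of the 19 samples of the series. The single input library, made from control cells without enrichment, served as the reference, and 3 control libraries of H3K9me2 served as a readout that the comparison did not use. The series was made to follow these marks after deletion of *Dnmt1*, the gene of the maintenance DNA methyltransferase.

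All 6 libraries carried the label Wildtype, cell type ESC and background strain E14, with the day (4 or 8) and a running number in the title, and no agent was named for them in the labels. The methods of the study describe instead ESCs of C57BL/6 background with loxP sites in *Dnmt1*, grown in serum with LIF, in which tamoxifen induces Cre. Which of these the control libraries came from is therefore not settled. The antibody of H3K27me3 library d8.2 has another catalogue number than that of d4.1 and d8.1, and the H3K9me3 libraries shared a monoclonal antibody. Whether the libraries came from separate cultures is not stated, and the methods speak of a single ChIP-seq measurement. The p-values below therefore measure only the spread between these libraries, which may be technical.

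H3K27me3 is laid down by Polycomb repressive complex 2, and in ESCs it is known for covering the CpG-rich promoters of developmental regulators that are silent but can be switched on later. H3K9me3 is laid down by SETDB1 and the SUV39H enzymes, is bound by HP1 proteins, and is known in ESCs for endogenous retroviruses, satellite repeats, zinc finger gene clusters and imprinting control regions. KRAB zinc finger proteins bring SETDB1 to such sites through TRIM28, and ZFP57 does so at imprinted regions by binding a methylated TGCCGC hexamer.

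The contrast is visible in the DNA itself. The 300 bases before the annotated start are shown for 2 promoters called for H3K27me3 (*Lhx8* and *Nkx2-3*, which encode homeodomain transcription factors) and 2 called for H3K9me3 (*Zfp125*, a zinc finger gene, and *Ifna13*, an interferon alpha gene), with each CG in capitals. They lie in NCBIM37 at chr3:153993616-153993915 on the - strand, chr19:43686515-43686814 on the + strand, chr12:20906729-20907028 on the - strand and chr4:88290364-88290663 on the - strand. The *Zfp125* stretch falls in an annotated intron and the other 3 between genes.
Lhx8: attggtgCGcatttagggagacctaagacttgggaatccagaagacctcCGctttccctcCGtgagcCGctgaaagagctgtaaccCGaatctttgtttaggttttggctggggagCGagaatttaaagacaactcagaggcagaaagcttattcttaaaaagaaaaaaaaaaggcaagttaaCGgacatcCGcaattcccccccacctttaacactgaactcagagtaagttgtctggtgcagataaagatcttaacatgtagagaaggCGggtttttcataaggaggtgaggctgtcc
Nkx2-3: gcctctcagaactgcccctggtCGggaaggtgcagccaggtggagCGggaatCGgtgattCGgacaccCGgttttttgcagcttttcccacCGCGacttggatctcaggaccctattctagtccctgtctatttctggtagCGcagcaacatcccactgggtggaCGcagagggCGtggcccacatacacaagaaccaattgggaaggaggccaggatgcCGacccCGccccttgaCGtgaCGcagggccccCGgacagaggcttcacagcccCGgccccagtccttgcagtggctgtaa
Zfp125: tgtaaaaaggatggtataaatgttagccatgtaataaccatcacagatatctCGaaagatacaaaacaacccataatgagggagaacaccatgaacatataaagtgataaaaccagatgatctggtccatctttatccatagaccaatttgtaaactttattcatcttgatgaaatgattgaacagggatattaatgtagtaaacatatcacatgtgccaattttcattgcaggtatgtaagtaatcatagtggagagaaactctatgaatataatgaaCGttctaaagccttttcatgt
Ifna13: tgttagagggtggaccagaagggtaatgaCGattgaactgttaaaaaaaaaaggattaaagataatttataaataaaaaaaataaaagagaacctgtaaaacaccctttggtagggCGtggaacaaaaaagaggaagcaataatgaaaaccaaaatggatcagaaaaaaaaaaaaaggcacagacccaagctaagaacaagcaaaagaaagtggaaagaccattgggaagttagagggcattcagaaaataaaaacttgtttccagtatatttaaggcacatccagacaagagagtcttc
These stretches held 9 and 16 CG sites in the H3K27me3 promoters and 2 in each of the H3K9me3 promoters. GC content was 45.3% and 61.3% against 32.3% and 34.3%.

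Imprinted regions carried H3K9me3 on sequence of another kind. The following 300 bases on the + strand come from the 2 kb tile (the window in which reads were counted) with the highest H3K9me3 near *H19* (chr7:149766001-149766300, between genes), *Peg3* (chr7:6682131-6682430, intron) and *Snrpn* (chr7:67149201-67149500, intron). Capitals mark TGCCGC or its reverse complement GCGGCA.
H19: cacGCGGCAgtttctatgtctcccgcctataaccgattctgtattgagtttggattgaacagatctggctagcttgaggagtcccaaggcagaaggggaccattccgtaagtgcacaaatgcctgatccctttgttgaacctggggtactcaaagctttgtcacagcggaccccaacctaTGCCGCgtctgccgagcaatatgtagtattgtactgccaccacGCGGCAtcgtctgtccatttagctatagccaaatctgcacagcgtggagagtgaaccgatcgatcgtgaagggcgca
Peg3: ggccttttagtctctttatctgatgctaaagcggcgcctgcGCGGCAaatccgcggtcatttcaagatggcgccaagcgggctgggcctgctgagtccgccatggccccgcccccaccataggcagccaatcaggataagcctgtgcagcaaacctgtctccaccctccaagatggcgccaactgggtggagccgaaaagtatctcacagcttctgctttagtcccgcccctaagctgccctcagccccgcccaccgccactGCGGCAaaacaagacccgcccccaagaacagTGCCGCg
Snrpn: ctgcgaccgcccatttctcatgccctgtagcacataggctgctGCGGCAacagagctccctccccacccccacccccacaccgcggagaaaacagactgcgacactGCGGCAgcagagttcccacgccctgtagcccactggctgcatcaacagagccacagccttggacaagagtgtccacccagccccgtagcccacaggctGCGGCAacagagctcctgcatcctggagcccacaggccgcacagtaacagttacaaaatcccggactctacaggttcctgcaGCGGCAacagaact
The stretches held 17, 19 and 13 CG sites, and their whole tiles 31.5, 47 and 26.5 CpG per kb. Each stretch was placed where its tile held the most copies of the hexamer, which were 3, 3 and 4. Every copy contains a CG, so this choice favoured CG sites, unlike the fixed place of the promoter stretches. Of whole 2 kb tiles, 0.281% of all and 4.94% of those with at least 20 CpG per kb held 3 or more.

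The H3K27me3 libraries held 20789553 to 22947678 reads in tiles, the H3K9me3 libraries 17557643 to 19364620 and the input 19010249, with a median of 12 to 15 reads per tile. Intervals of such counts cover counting error only. The tile with the most reads, at the gene model *Gm10800* on chromosome 2, took 3.40% to 4.51% of the H3K9me3 reads, 0.325% to 0.327% of the H3K27me3 reads and 1.26% of the input reads. Over 100 kb windows, libraries of the same mark correlated with Pearson's r of 0.973 to 0.988 and Spearman's rho of 0.940 to 0.978, and libraries of different marks with r of 0.421 to 0.573 and rho of 0.04 to 0.25. These windows share depth and base composition, and the coefficients are given as a description.

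Values are given as log2 of the library over the input, after both were divided by the reads that an even spread would give, so that 0 is the level of the input and 1 is 2-fold above it. A feature was called when H3K27me3 and H3K9me3 differed at least 2-fold with an adjusted p-value under 0.05 in limma. A call states which mark was the higher, and not that either mark stood above the input.

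H3K27me3 was the higher mark at 10871 of 25500 promoters (the tiles within 1 kb of a gene start), which is 42.6%, and H3K9me3 at 1155, which is 4.53%. The median difference over all promoters was 0.70. Of the 10871 promoters, 6499 (59.8%) had H3K27me3 at least 2-fold above the input in all 3 libraries, and 4636 had H3K9me3 at least 2-fold below it. Of the 1155, only 268 (23.2%) had H3K9me3 at least 2-fold above the input, and 572 had H3K27me3 at least 2-fold below it. Thus most of the smaller group was called with H3K9me3 within 2-fold of the input or lower. GC content moved with these counts. For GC correction, the median of each library over features of like GC content was subtracted. A call after it is relative to features of like GC content, and does not state which mark was the higher. The median difference was -0.14 after it, since the subtraction takes out what is typical of a GC content. After GC correction, 5580 promoters (21.9%) were called for H3K27me3 and 6043 (23.7%) for H3K9me3. Of the original calls, 5520 of the H3K27me3 promoters (50.8%) and 1034 of the H3K9me3 promoters (89.5%) were then called the same way, and 271 H3K27me3 promoters were called the other way. With each library centred on its median 100 kb window, the counts were 11718 and 870 and the median difference 0.85.

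**Figure D1:**
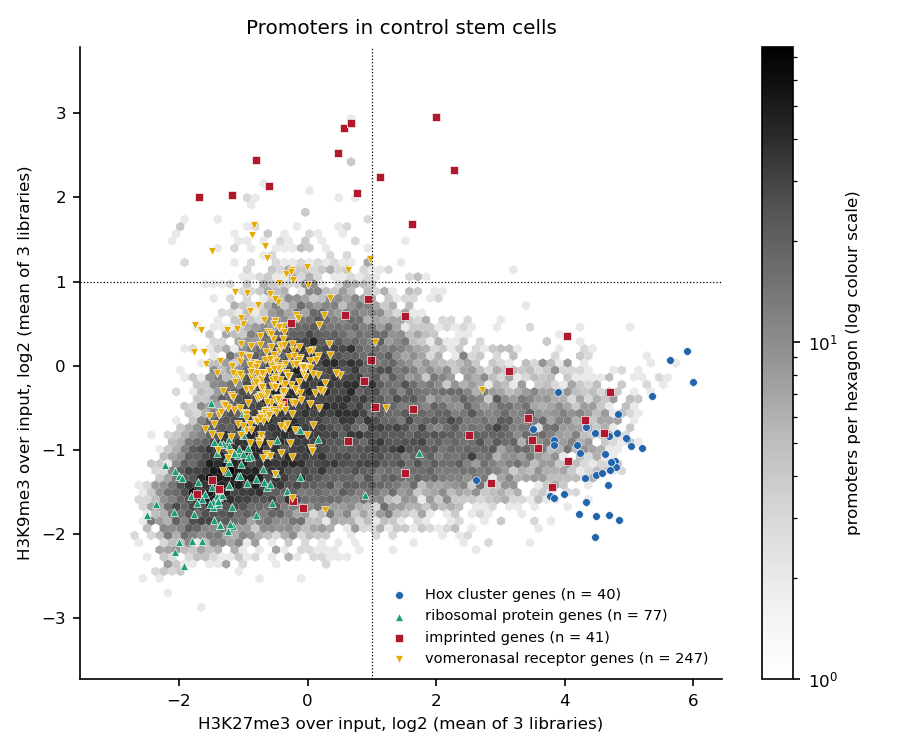
Log2 of H3K27me3 (x axis) and H3K9me3 (y axis) over input at promoters with at least 10 input reads, as means of 3 libraries, with grey hexagons for all such promoters and coloured symbols for 4 gene lists. Dotted lines mark 2-fold above the input. The *Hox* promoters lie far to the right and low, the vomeronasal receptor promoters near 0, and the imprinted promoters spread along both axes.

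The *Hox* genes, which set position along the body axis, held the highest median H3K27me3 of the gene lists, at 4.58 ± 0.27 over input. All 40 annotated promoters in the 4 clusters were called for H3K27me3, with a median difference of 5.72. All 40 remained called after GC correction with a median of 4.00. *Hoxa3* is annotated more than once. At the *Hoxb5* promoter, H3K27me3 was 4.78, 5.16 and 4.60 over input in libraries d4.1, d8.1 and d8.2, and H3K9me3 was -1.66, -1.04 and -2.79. The 3 H3K27me3 libraries all lay far above the input and the 3 H3K9me3 libraries all below it. The difference of 6.68 (SE 0.30, limma adjusted p = 1.05e-16) is a 102-fold excess, the largest over all promoters tested, over only 3 to 12 H3K9me3 reads per library. *Hoxa6* (difference 6.51), *Hoxd10* (6.46), *Hoxd13* (5.51), *Hoxa9* (5.68) and *Hoxb1* (4.71) followed the same order of marks.

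Transcription factors that direct germ layers and organs were nearly as uniform. Of 159 lineage factor promoters, 150 were called for H3K27me3 and 0 for H3K9me3, with a median difference of 4.87. The shares over all promoters were 42.6% and 4.53%. After GC correction, 120 of the 159 were called for H3K27me3 and 6 for H3K9me3, with a median of 2.33. *Lhx8*, a LIM homeodomain factor of forebrain neurons, had H3K27me3 of 4.54, 4.95 and 4.67 and H3K9me3 of -1.38, -0.72 and -2.09, a difference of 6.11 (SE 0.27, limma adjusted p = 7.78e-17). *Nkx2-3*, which acts in gut and spleen development, had H3K27me3 of 4.96, 5.57 and 5.04 and H3K9me3 of -1.04, -1.13 and -0.58, a difference of 6.10. In both, every H3K27me3 library exceeded every H3K9me3 library by more than 5 units. The neural factors *Lhx2* (5.70), *Pax6* (5.47), *Nkx2-2* (5.40) and *Neurog1* (5.34) and the endoderm factors *Foxa2* (5.45), *Gata6* (5.41) and *Sox17* (5.19) had like differences. The 9 lineage factors that were not called were *Tbx19*, *Tbx6*, *Neurod4*, *Sox15*, *Foxi1*, *Foxk2*, *Foxn3*, *Foxm1* and *Foxo4*, with differences from -0.11 (*Foxm1*) to 0.83 (*Foxo4*).

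The secreted ligands that act with these factors showed the same mark. Of 55 promoters of Wnt, Fgf, Bmp and hedgehog ligands, 50 were called for H3K27me3 and 0 for H3K9me3, with a median difference of 4.61. The shares over all promoters were 42.6% and 4.53%. After GC correction 38 and 0 of the 55 were called. *Shh*, the hedgehog ligand of limb and neural tube patterning, had H3K27me3 of 4.05, 4.51 and 4.14 and H3K9me3 of -2.02, -2.28 and -2.51. The marks were separated without overlap, by 6.50 (SE 0.23, limma adjusted p = 3.37e-17). *Fgf8* had a difference of 5.30 and *Wnt1* of 5.21. The 5 ligands not called were *Fgf10*, *Fgf7*, *Bmp10*, *Bmp5* and *Bmp15*, whose differences were 0.03, 0.60, 0.00, 0.32 and 0.83. Among the other protein-coding promoters with the largest differences was that of *Sp9* (6.17), a zinc finger factor of the Sp family.

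The clustered protocadherins, cell adhesion proteins that give neurons their surface identity, were called for H3K27me3 at 24 of 24 promoters (23 after GC correction). Their H3K27me3 levels were lower than those of the *Hox* genes, with a median difference of 3.16 and a range of 1.80 to 4.31. *Pcdhb21* had H3K27me3 of 2.51, 2.93 and 2.53 and H3K9me3 of -1.87, -1.46 and -1.61. Germline genes, which act in meiosis and germ cells, were called for H3K27me3 at 20 of 29 promoters (69.0%) and for H3K9me3 at 2 (6.90%). The shares over all promoters were 42.6% and 4.53%, so the share for H3K9me3 was near that over all promoters. After GC correction 13 and 6 of the 29 were called, beside 5580 and 6043 of 25500 over all promoters. The piRNA pathway gene *Ddx4* had H3K27me3 of 2.98, 3.24 and 2.50 and H3K9me3 of -0.46, -0.21 and 0.31, a difference of 3.02. *Dazl*, an RNA-binding protein of germ cells, differed by 1.17. The 2 germline promoters called for H3K9me3 were *Fkbp6* (-1.60) and *Dpep3* (-1.32). At *Fkbp6*, a co-chaperone of the piRNA pathway, H3K9me3 was 2.17, 2.77 and 1.85 and H3K27me3 was 1.01, 0.54 and 0.44. With 5 kb on either side of the start the difference was -0.02 (limma adjusted p = 0.92).

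Ribosomal protein genes, which every growing cell transcribes, had a typical level below the input for both marks. Their 77 promoters had a median H3K27me3 of -1.24 ± 0.07 (SD over 3 libraries) and a median H3K9me3 of -1.33 ± 0.05, both below the input. Of them, 6 were called for H3K27me3 and 1 (*Rpl23*, -1.06) for H3K9me3, with a median difference of 0.15. The shares, 7.79% and 1.30%, were below the 42.6% and 4.53% over all promoters. *Rpl7* had 10, 15 and 15 H3K27me3 reads and 12, 7 and 15 H3K9me3 reads against 28 input reads. The marks overlapped there, with a difference of 0.03. After GC correction, which sets promoters against those of like GC content, the ribosomal counts turned to 1 and 35. The count of 35 therefore does not mean that H3K9me3 was the higher mark at these promoters. Over all promoters that correction gave 5580 and 6043 of 25500. After centring the ribosomal counts were 7 and 0. *Rpl13a* was the only member 2-fold above the input in all libraries of a mark, with H3K27me3 of 1.79, 1.97 and 1.42 and a difference of 2.77. *Actb*, the gene of cytoplasmic actin, had means of -1.71 for H3K27me3 and -1.25 for H3K9me3 and was not called.

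Among 24 pluripotency genes, 12 promoters were called for H3K27me3 and 0 for H3K9me3, which is 50.0% beside 42.6% over all promoters. After GC correction 5 and 8 were called (20.8% and 33.3%, beside 21.9% and 23.7%). *Pou5f1*, *Nanog* and *Zfp42*, markers that define ESCs, were not called. *Pou5f1* had means of -1.73 for H3K27me3 and -0.83 for H3K9me3 and *Nanog* had -0.70 and -0.42. Both marks lay below the input at these 2 genes in all libraries. *Sox2* had H3K27me3 of 0.80, 0.44 and 0.61 over input and H3K9me3 of -0.72, -1.51 and -2.98. Its difference of 2.36 was 0.21 after GC correction (limma adjusted p = 0.657). *Esrrb* had a difference of 1.23. *Prdm14*, a regulator of naive pluripotency and germ cells, stood apart with H3K27me3 of 3.32, 3.56 and 3.44 and a difference of 4.73. *Tbx3* (4.29), *Klf4* (3.42) and *Klf2* (3.16) also had H3K27me3 above the input. As histone marks were measured and not RNA, these genes do not test the cell type as expression would.

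The genes of the machinery of both marks were counted as well. Of 25 Polycomb promoters, 11 (44.0%) were called for H3K27me3 and 0 for H3K9me3, a share near that over all promoters (7 and 10 after GC correction). *Bmi1*, a subunit of Polycomb repressive complex 1, had H3K27me3 of 3.33, 3.65 and 3.47 and H3K9me3 of -1.56, -2.24 and -2.47, a difference of 5.58. *Cbx8* (5.52) and *Cbx2* (4.61), which encode its chromodomain subunits, were also high. The core subunits of complex 2, *Ezh2* (0.39), *Suz12* (0.25) and *Eed* (-0.79), were not called. Of 24 promoters of H3K9 methylation genes, 2 were called for H3K27me3 (*Kdm4b*, 1.95, and *Suv39h2*, 1.31) and 2 for H3K9me3 (*Atf7ip*, -1.64, and *Zfp809*, -1.57). These shares, 8.33% each, stand beside 42.6% and 4.53% over all promoters. After GC correction 0 and 13 of the 24 were called, beside 5580 and 6043 of 25500 over all promoters. *Setdb1* (0.62) and *Trim28* (-0.05) were not called. Over gene bodies, 0 of these 24 genes were called for H3K27me3 and 5 for H3K9me3, namely *Zfp809* (-1.62), *Smarcad1* (-1.41), *Suv39h1* (-1.45), *Atf7ip* (-1.18) and *Zfp57* (-1.15). The shares over all gene bodies were 24.8% and 6.00%. Both marks were below the input at the typical body of this list, with medians of -0.94 ± 0.18 for H3K9me3 and -1.64 ± 0.07 for H3K27me3. H3K9me3 was 2-fold above the input in all libraries at 0 of the 24.

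**Figure D2:**
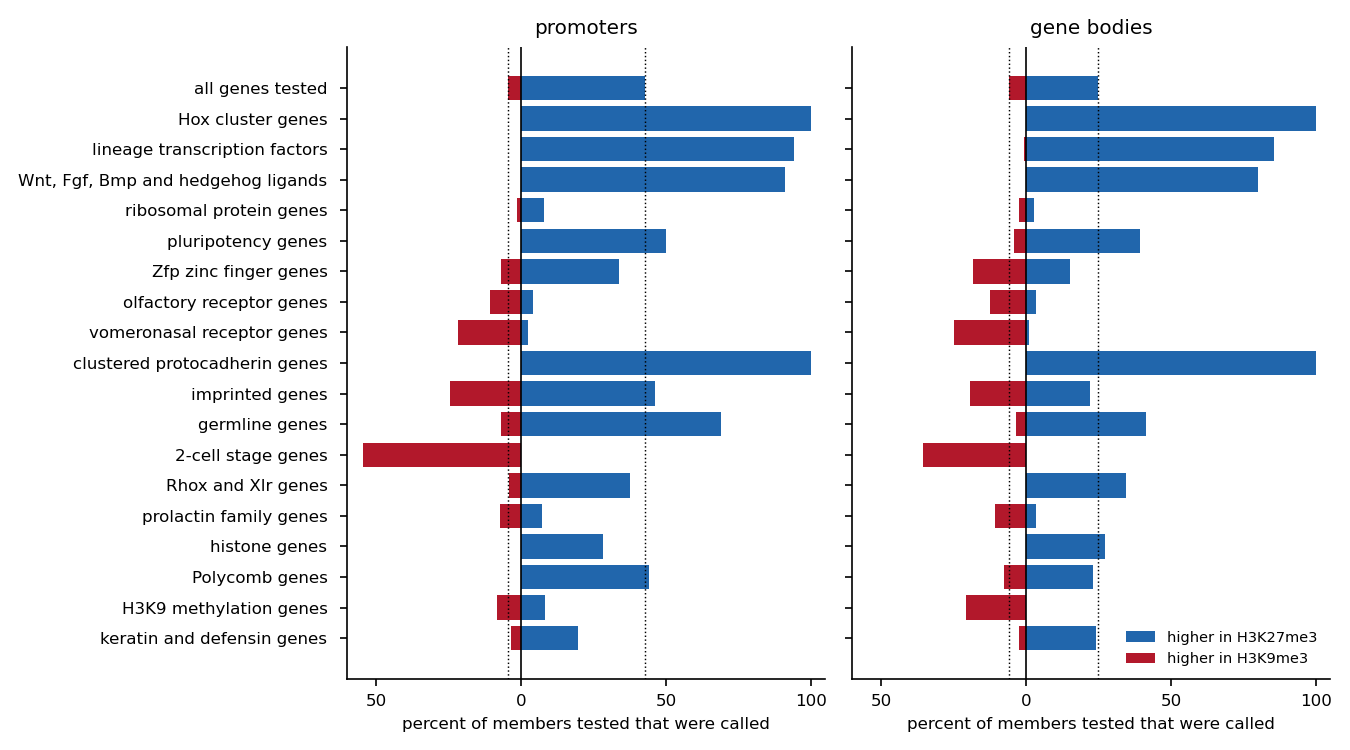
Percent of tested members of each gene list called higher in H3K27me3 (blue, to the right of 0) or in H3K9me3 (red, to the left of 0), for promoters and gene bodies. Dotted lines mark the shares over all genes tested, 42.6% and 4.53% for promoters and 24.8% and 6.00% for gene bodies.

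Among protein-coding genes, the largest H3K9me3 excess at a promoter was that of *Prr14*, whose protein ties HP1-bound chromatin to the nuclear lamina. H3K9me3 was 2.30, 2.77 and 2.27 over input there and H3K27me3 was -0.81, -2.58 and -2.33, so that all H3K9me3 libraries were above the input and all H3K27me3 libraries below it. The difference was -4.35 (SE 0.33, limma adjusted p = 1.92e-12), a 20.5-fold excess. The next, at least 1 Mb apart, were 4930423O20Rik (-3.86), *Gm17462* (-3.75), *Gm10721* (-3.74), *Ifna13* (-3.73), *Zrsr1* (-3.68), *Gm10800* (-3.62) and *Rrn3* (-3.62), an initiation factor of RNA polymerase I. The reads of *Gm10800* and *Gm10721* are uncertain as to place: their promoters held 239457 and 827 input reads, whereas the other 6 held 5 to 37. At *Ifna13*, H3K9me3 was 2.07, 2.68 and 2.22 and H3K27me3 was -1.39, -1.47 and -1.35, without overlap.

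Receptor genes of smell and pheromone detection were seldom called for H3K27me3, and their H3K9me3 levels were low. Of 269 vomeronasal receptor promoters, 59 (21.9%) were called for H3K9me3 and 6 for H3K27me3, with a median difference of -0.41 beside 0.70 over all promoters. Of 1084 olfactory receptor promoters, 117 (10.8%) and 44 were called, with a median of -0.29. After GC correction the counts were 44 and 10 for vomeronasal and 84 and 39 for olfactory receptors, and after centring 47 and 6 and 76 and 53. The GC-corrected shares for H3K9me3, 16.4% and 7.75%, were below the 23.7% over all promoters, whereas the uncorrected shares were above the 4.53% over all promoters. Median H3K9me3 was -0.12 ± 0.09 and -0.24 ± 0.06 over input and median H3K27me3 was -0.52 ± 0.10 and -0.52 ± 0.08. Both marks were thus near or below the input at the typical receptor gene, and 11 and 10 promoters had H3K9me3 at least 2-fold above it. *Vmn2r22* had H3K9me3 of 1.21, 1.52 and 1.37 (difference -2.85) and *Olfr1055* had 0.79, 0.98 and 0.73 (difference -3.54). *Vmn1r90* (2.99) and *Olfr95* (3.39) held H3K27me3 instead.

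Genes active in the 2-cell embryo went to H3K9me3 where they were called. Of 11 tested promoters, 6 were called for H3K9me3 and 0 for H3K27me3, with a median difference of -1.01 (9 and 0 after GC correction, 3 and 0 after centring). The shares over all promoters were 4.53% for H3K9me3 and 42.6% for H3K27me3. After GC correction they rose to 6043 of 25500 for H3K9me3 and fell to 5580 for H3K27me3. *Dub2a*, a deubiquitinase gene, had H3K9me3 of 0.70, 0.90 and 0.20 and H3K27me3 of -0.84, -0.59 and -1.57. *Zfp352* differed by -1.23, *Zscan4b* by -1.34, *Dub1* by -1.14, *Dub3* by -1.13 and *Usp17l5* by -1.01. None of the 11 was 2-fold above the input in all H3K9me3 libraries. These genes have near-identical copies, between which reads may be split, and *Zscan4c* had too few reads to be tested.

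Smaller differences were spread over other lists. Over all promoters, 42.6% were called for H3K27me3 and 4.53% for H3K9me3, and 5580 and 6043 of 25500 after GC correction. *Rhox* and *Xlr* genes of the X chromosome were near the uncorrected shares. H3K27me3 was called at 9 of 24 promoters (37.5%) and H3K9me3 at 1 (4.17%, *Rhox2d*, -1.01). After GC correction 2 and 2 were called. Of 28 promoters of genes with prolactin names, 2 (7.14%) were called for H3K27me3 and 2 (7.14%) for H3K9me3. The H3K27me3 ones were *Prlr* (2.51) and *Prlh* (1.61). These encode the prolactin receptor and prolactin-releasing hormone and are not members of the prolactin family. The H3K9me3 ones were *Prl2c3* (-1.21) and *Prl7d1* (-1.02). After GC correction 1 and 0 were called, and after centring 2 and 1. Histone genes were called for H3K27me3 at 17 of 60 promoters (28.3%) and for H3K9me3 at 0 (11 and 15 after GC correction), with *Hist3h2ba* (3.60) the highest. Keratin and defensin genes were called at 17 of 87 promoters (19.5%) for H3K27me3 and at 3 (3.45%) for H3K9me3 (5 and 22 after GC correction).

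Imprinted genes, which are expressed from the copy of a single parent, were divided between the marks. Of 41 promoters, 19 (46.3%) were called for H3K27me3 and 10 (24.4%) for H3K9me3, beside 42.6% and 4.53% over all promoters. The share for H3K27me3 was thus near that over all promoters. After GC correction 11 and 14 of the 41 were called, beside 5580 and 6043 of 25500 over all promoters. The H3K27me3 group included *Rasgrf1* (5.40), *Dlk1* (5.19), *Cdkn1c* (5.02) and *Igf2* (3.68). The H3K9me3 group was *Zrsr1* (-3.68), *Nespas* (-3.25), *Impact* (-3.20), *Peg3* (-2.73), *Nnat* (-2.26), *Peg10* and *Sgce* (-2.21 at a shared promoter), *Meg3* (-2.06), *Nap1l5* (-1.28) and *H19* (-1.12). At the *Impact* promoter, H3K9me3 was 1.92, 2.42 and 1.74 over input and H3K27me3 was -1.36, -1.22 and -0.95. At *Dlk1*, a secreted growth regulator, the order was the opposite, with H3K27me3 of 4.07, 4.39 and 3.72 and H3K9me3 of -0.67, -1.11 and -1.62. No library of either mark crossed over at these genes. *H19* had H3K9me3 of 2.05, 3.0 and 1.70 and H3K27me3 of 1.39, 0.90 and 1.11. Its difference was -1.12, and was -0.74 without H3K9me3 library d8.1 and -0.97 with centred libraries, which is under the 2-fold limit.

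Both marks were at least 2-fold above the input in all libraries at 35 promoters, 0.137% of those tested. Some had few input reads, such as *Gm15448* and *Gm10991* with 0, and *Gml* and *Hemt1* shared the same tiles. The promoters with both marks included 3 imprinted genes, *Plagl1*, *Airn* and *Inpp5f*, named here after their values were seen. These held 36, 23 and 14 input reads. *Plagl1*, a zinc finger gene expressed from the paternal copy, had H3K27me3 of 2.35, 2.43 and 2.07 and H3K9me3 of 2.25, 2.64 and 2.10. *Airn*, the noncoding RNA that silences *Igf2r*, had H3K27me3 of 1.75, 2.39 and 1.86 and H3K9me3 of 2.81, 3.42 and 2.66. The marks overlapped fully at *Plagl1*, and neither gene was called. A ChIP signal summed over cells and both parental copies cannot place the marks on the same or on different copies.

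The 2 kb tiles showed H3K9me3 near more imprinted genes than the promoters did. Within the gene and 5 kb around it, 23 of 41 imprinted genes (56.1%) had a tile with H3K9me3 at least 4-fold above the input on the mean of the 3 libraries, against 952 of 25336 genes (3.76%). They shared 17 distinct tiles, since neighbouring genes had the same tile. For H3K27me3 the same count was 19 of 41 (46.3%) against 25.1%. These genes spanned a median of 15 tiles, against 11 over all genes. The *Peg3* tile (NCBIM37 chr7:6682001-6684000), whose bases are shown above, had H3K9me3 of 3.03, 3.66 and 2.60 and H3K27me3 of -0.57, -0.03 and -0.94. The *H19* tile lay 2.95 kb upstream of the gene start, with H3K9me3 of 2.80, 3.58 and 2.36 and H3K27me3 of -0.06, -0.05 and -0.15. The *Snrpn* tile lay 136 kb inside the annotated gene, with H3K9me3 of 2.56, 3.08 and 2.35 and H3K27me3 of -0.79, -1.53 and -1.04. At all 3 tiles, library d8.1 was the highest for H3K9me3, and the marks did not overlap.

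Other imprinted tiles carried both marks. The tile in *Airn* and *Igf2r* had mean H3K9me3 of 3.21 ± 0.42 (SD, n = 3) and H3K27me3 of 2.24 ± 0.32. The tile in *Grb10*, which encodes an adaptor that limits growth, had 2.83 ± 0.46 and 3.04 ± 0.36. The tile in *Mest* had 2.76 ± 0.48 and 1.93 ± 0.36. The promoters of *Snrpn* and *Mest* at their annotated starts did not include these tiles. They had 3.75 and 8.75 CpG per kb and differences of 0.05 and 1.05.

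**Figure D3:**
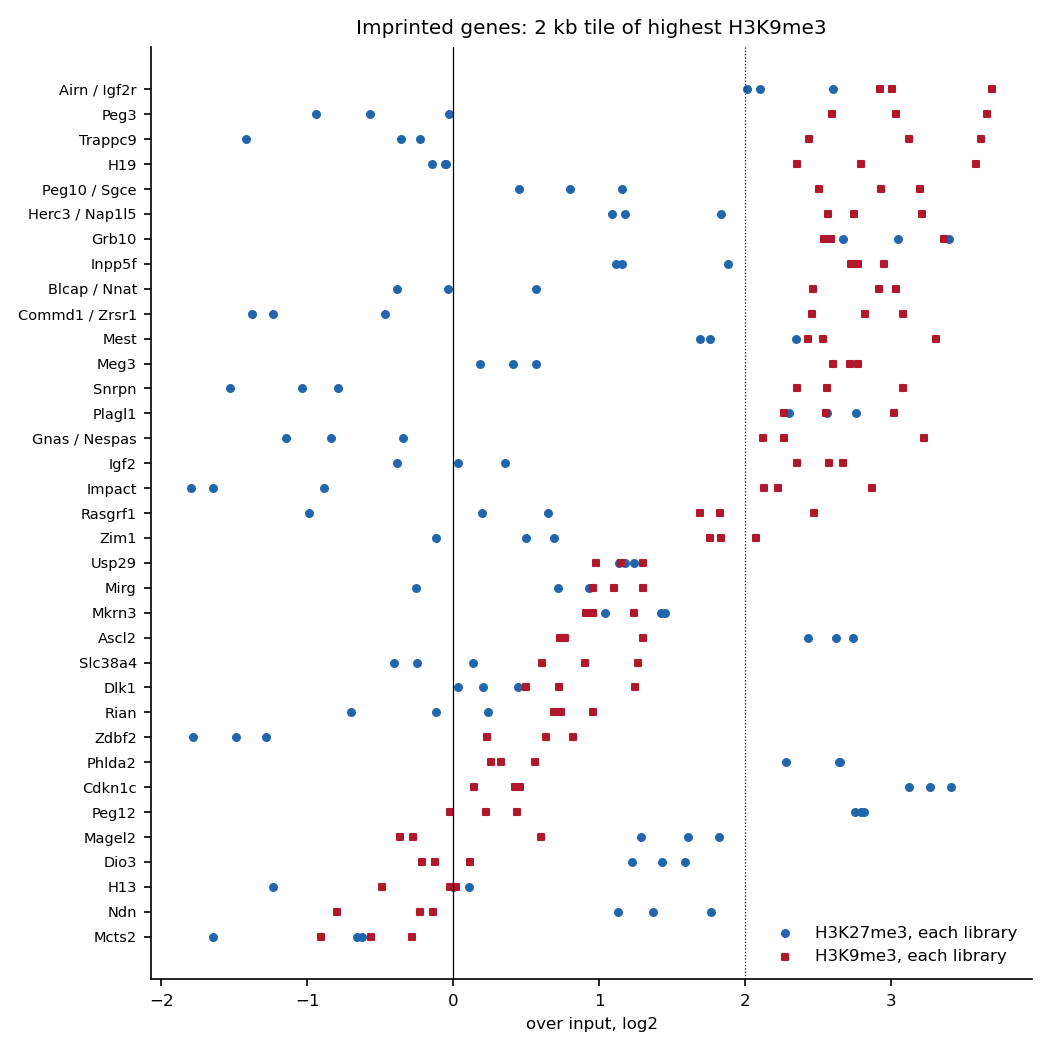
Log2 over input of each library at the 2 kb tile with the highest mean H3K9me3 in each imprinted gene and 5 kb around it, with H3K27me3 as blue circles and H3K9me3 as red squares, and genes with the same tile on 1 line. The dotted line marks 4-fold above the input. Tiles of *Peg3*, *H19* and *Snrpn* show the marks apart, and those of *Plagl1*, *Grb10* and *Airn* show both above the input.

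The hexamer TGCCGC, searched on both strands, was in 14 of the 17 distinct tiles of these genes, and 12 held 3 or more copies. Over all tiles, 10.9% held at least 1. CpG content moves with the hexamer. Among tiles with at least 20 CpG per kb and at least 10 input reads, it was in 46.9% of all 34915, in 71.0% of the 510 with H3K9me3 at least 4-fold above the input and in 55.7% of the 6542 with H3K27me3 at least 4-fold above it. Per 100 CpG sites these tiles held 1.12, 2.60 and 1.20 copies. A match is a description of the sequence and shows no binding.

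Before GC correction, the balance moved towards H3K9me3 over gene bodies. H3K27me3 was higher at 6356 of 25617 gene bodies (24.8%) and H3K9me3 at 1538 (6.00%), with a median difference of 0.14. After GC correction the counts were 3683 and 4236, against 5580 and 6043 at promoters, so that both were lower over bodies. The zinc finger genes named *Zfp* showed the shift before that correction. At promoters, 122 of 361 (33.8%) were called for H3K27me3 and 25 (6.93%) for H3K9me3 (median 0.51), beside 42.6% and 4.53% over all promoters. Over bodies these were 56 of 366 (15.3%) and 67 (18.3%), with a median of -0.13, beside 24.8% and 6.00% over all bodies. After GC correction the counts were 56 and 100 at promoters and 43 and 89 over bodies, and after centring the bodies had 67 and 52. In 259 *Zfp* genes of at least 10 kb, cut into 10 parts of equal length and read in the middle tile of each part, H3K9me3 went from -0.89 ± 0.04 in the first part to -0.10 ± 0.06 in the last, and H3K27me3 from 0.08 ± 0.15 to -0.12 ± 0.09. Over all protein-coding genes, H3K9me3 was -0.66 ± 0.05 in the first part and -0.37 ± 0.06 in the last.

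Single zinc finger genes reached higher levels. *Zfp445*, a KRAB zinc finger gene known for a part in maintaining imprints, had H3K9me3 of 1.79, 2.15 and 1.68 and H3K27me3 of -1.51, -1.26 and -1.36 over its body. The marks did not overlap, and the difference was -3.25 (SE 0.15, limma adjusted p = 4.25e-06). *Gm13235* (-3.81), *Gm15446* (-3.14), *Gm7221* (-3.09) and *Prr14* (-2.98) were the other bodies of at least 10 kb with the largest H3K9me3 excess. The promoter of *Zfp125* had H3K9me3 of 1.33, 2.00 and 1.79 (difference -3.34), and *Zfp503*, a zinc finger gene of neural development, had H3K27me3 of 4.17, 4.67 and 4.09 (difference 5.53). At the other end, *Sp9* (5.62), *Skor1* (5.61), *Hoxa3* (5.61), *Nr2f2* (5.57) and *Nkx2-2* (5.54) had the largest H3K27me3 excess over bodies of at least 10 kb, at least 1 Mb apart. The body of *Skor1*, a neural corepressor gene, had H3K27me3 of 4.89, 5.31 and 4.91 and H3K9me3 of -0.48, -0.67 and -0.57.

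The profiles around gene starts differed in shape as well as level. In the 199 *Hox* and lineage factor genes, H3K27me3 was 4.17 ± 0.27 in the tile of the start and still 2.59 ± 0.17 at 20 kb upstream and 2.59 ± 0.18 at 20 kb downstream. H3K9me3 was below the input throughout, at -0.79 ± 0.09 in the start tile. In ribosomal protein genes, H3K27me3 was -1.06 ± 0.16 at the start and lowest, at -1.60, 2 kb downstream, and was 0.35 ± 0.08 at 20 kb downstream. On the summed reads of 41 imprinted genes, both marks peaked at the start, H3K27me3 at 2.37 ± 0.24 and H3K9me3 at 1.40 ± 0.37. H3K9me3 was -0.05 ± 0.04 at 20 kb downstream. Such sums weigh genes with many reads most. The median imprinted promoter was lower, at 0.97 ± 0.05 for H3K27me3 and -0.18 ± 0.12 for H3K9me3. Both marks were 2-fold above the input in all libraries at only 3 of these promoters. Over all protein-coding genes, the start tile had 1.34 ± 0.21 for H3K27me3 and -0.61 ± 0.07 for H3K9me3.

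**Figure D4:**
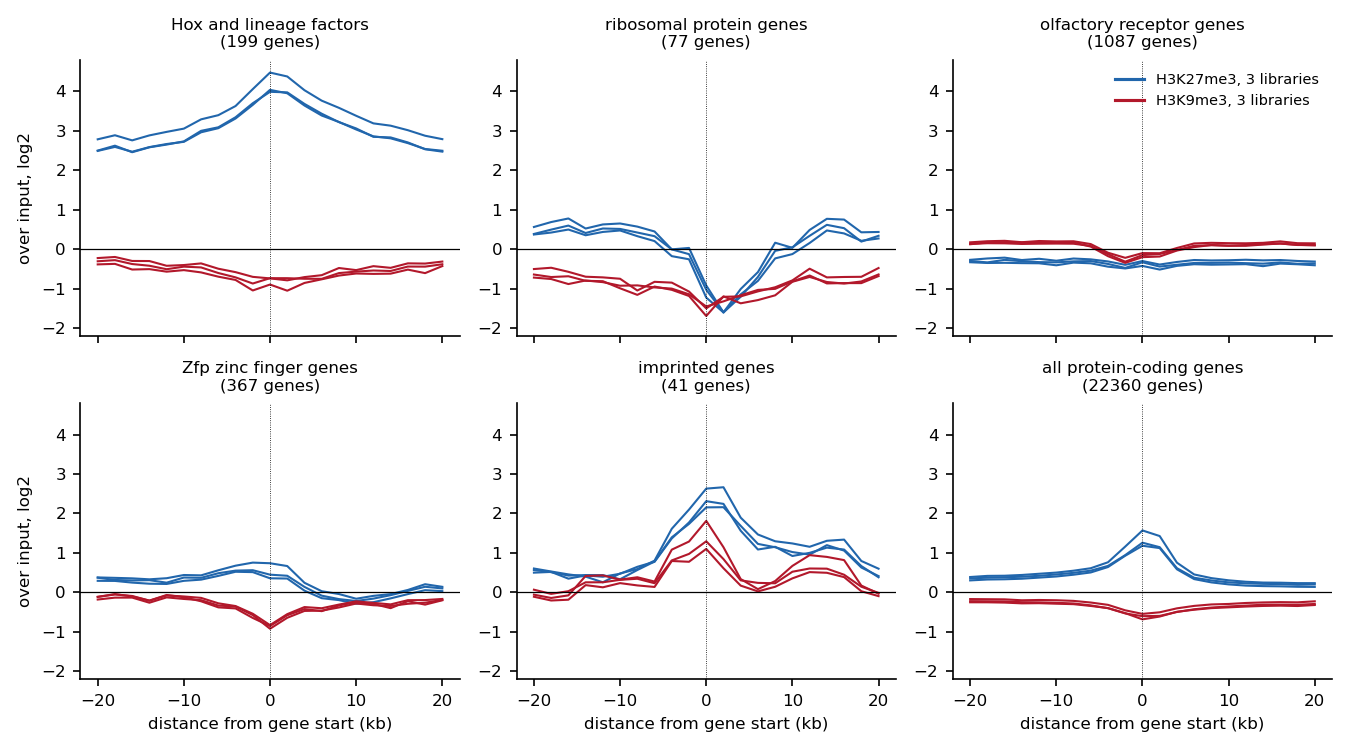
Log2 over input against distance from the gene start in 2 kb tiles, on the summed reads of 6 gene groups, with 1 line per library (H3K27me3 blue, H3K9me3 red). H3K27me3 of the *Hox* and lineage factors stays at 2.59 at 20 kb on either side, and imprinted genes show a peak of both marks at the start.

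Windows of 10 kb covered the whole genome. H3K27me3 was higher in 27339 of 252848 windows (10.8%) and H3K9me3 in 30438 (12.0%), with a median difference of -0.19. After GC correction the counts were 25030 and 27484, and after centring 32825 and 23081. The order of the counts turned after centring. H3K27me3 was at least 2-fold above the input in all its libraries in 13071 windows (5.17%) and H3K9me3 in 8581 (3.39%), and both were in 139. Of the called windows, 11990 (43.9%) of the H3K27me3 ones and 7859 (25.8%) of the H3K9me3 ones were 2-fold above the input.

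The windows with the largest H3K27me3 excess lay in all 4 *Hox* clusters and beside *Pax2*, a factor of kidney and ear development. The first, at chr11:96150001-96160000 over *Hoxb7* and *Hoxb6*, held 2307, 2918 and 2302 H3K27me3 reads and 26, 38 and 18 H3K9me3 reads against 52 input reads. The difference was 6.28 (SE 0.17, limma adjusted p = 1.16e-34). The windows with the largest H3K9me3 excess, outside the 1% with the highest input, lay on chromosomes 2, 4, 7 and 10 in or near *Gm13235*, *Nipa2*, *Clcn4-2*, *Gm14406* and D10Wsu102e. That at chr10:82880001-82890000 held 446, 668 and 419 H3K9me3 reads and 32, 25 and 37 H3K27me3 reads against 37 input reads, a difference of -4.21. High-copy sequence made up 36.3% to 63.9% of these 5 windows, beside a mean of 8.27% over all windows.

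Adjacent called windows were joined into runs, most of which were single windows. H3K27me3 had 13853 runs, of which 56.0% were 1 window and 960 were 50 kb or longer. H3K9me3 had 17474, of which 65.3% were 1 window and 765 were that long. The longest H3K27me3 run, of 530 kb on chromosome 11 (95980001 to 96510000), held the *Hoxb* cluster from *Hoxb1* to *Hoxb13*. The next were 290 kb over *Hoxc* genes on chromosome 15, 260 kb over *Dagla* and *Syt7* on chromosome 19, and 230 kb over *Wnt6*, *Wnt10a* and *Ihh* on chromosome 1. A run of 200 kb on chromosome 7 held the imprinted genes *Kcnq1*, *Cdkn1c* and *Phlda2*. The longest H3K9me3 run, of 910 kb, was on the Y chromosome (960001 to 1870000) over *Zfy2*. It was followed by 630 kb on the X chromosome and 530 kb on chromosome 7 (10470001 to 11000000) over *Vmn2r48* to *Vmn2r52*, *Vmn1r66* and *Nlrp4d*. A run of 370 kb on chromosome 1 (7840001 to 8210000) held no protein-coding gene.

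The marks sat in different sequence. Median GC content was 46.1% in H3K27me3 windows, 40.4% in H3K9me3 windows and 41.2% in all, and CpG density was 12.4, 6.90 and 7.30 per kb. High-copy sequence (31-base words seen at least 50 times in a sample of 1 in 32 words of the genome) averaged 4.94%, 16.6% and 8.27%. A protein-coding gene overlapped 58.9%, 32.4% and 44.9% of these windows, and a protein-coding start lay in 29.0%, 3.29% and 7.79%. TGCCGC was in 62.6%, 41.9% and 39.9%, with 0.924, 0.957 and 0.770 copies per 100 CpG sites. GAGAGA, a short GA repeat searched on both strands, occurred 27.4, 18.2 and 22.4 times per 10 kb. With windows cut into 10 groups of equal size by GC content, median H3K27me3 was -0.69 over input in the group of lowest GC and 0.52 in that of highest GC, whereas H3K9me3 was highest, at -0.04, in groups 5 and 6. At promoters with 40 or more CpG per kb, 65.7% were called for H3K27me3 and 1.11% for H3K9me3, and at those under 10 CpG per kb the shares were 12.3% and 11.4%.

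H3K9me2, which the comparison did not use, was below the input at both kinds of called window and promoter, and least so with H3K9me3. Its median was -0.52 over input in the H3K27me3 windows, with -0.48, -0.65 and -0.43 in libraries d4.1, d8.1 and d8.2. In the H3K9me3 windows it was -0.09, with -0.10, -0.01 and -0.14, and over all windows 0.04. The library values of the groups of windows did not overlap. At promoters called for H3K27me3 its median was -1.36 and at those called for H3K9me3 -0.27, beside -1.10 over all promoters.

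Windows of 100 kb showed which chromosomes leaned to which mark. H3K27me3 was higher in 2341 of 25548 windows (9.16%) and H3K9me3 in 1825 (7.14%), in 1534 each after GC correction, and in 2986 and 1283 after centring. On the Y chromosome, 27 of 29 windows (93.1%) were called for H3K9me3 and 0 for H3K27me3, and 25 after GC correction. Only 226 windows of 10 kb were tested on that chromosome. Reads were also summed over its tested 10 kb windows outside the 1% with the highest input, relative to the total of such windows in each library. On that scale, H3K9me3 was 1.69, 1.84 and 1.72 over input and H3K27me3 was -0.41, -0.55 and -0.17. The marks were widely separated there, which an exact permutation of 3 against 3 libraries could not put below p = 0.1. The X chromosome had 8.28% of windows called for H3K27me3 and 18.0% for H3K9me3 (11.5% and 12.1% after GC correction). Chromosome 7 had 12.4% and 14.5% (5.49% and 13.6% after GC correction). The gene-rich chromosomes 11 and 19 had 19.2% and 14.6% for H3K27me3 and 3.11% and 3.60% for H3K9me3, with like order after GC correction (9.59% and 8.92% against 4.37% and 3.09%).

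The balance also differed along the autosomes, which were cut into 10 parts of equal length. In the part next to the centromere, 4.35% of 100 kb windows were called for H3K27me3 and 13.7% for H3K9me3, and in the part at the far end 13.3% and 6.29%. Summed over the first part in the same way as for the Y chromosome, H3K9me3 was 0.12, 0.14 and 0.17 over input and H3K27me3 was -0.19, -0.19 and -0.17. The libraries of the marks did not overlap in any of the 10. Median GC content of 10 kb windows was 40.5% in the first part and 44.2% in the last. After GC correction the first part had 3.61% and 8.66%, whereas the last turned to 4.98% and 9.55%.

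**Figure D5:**
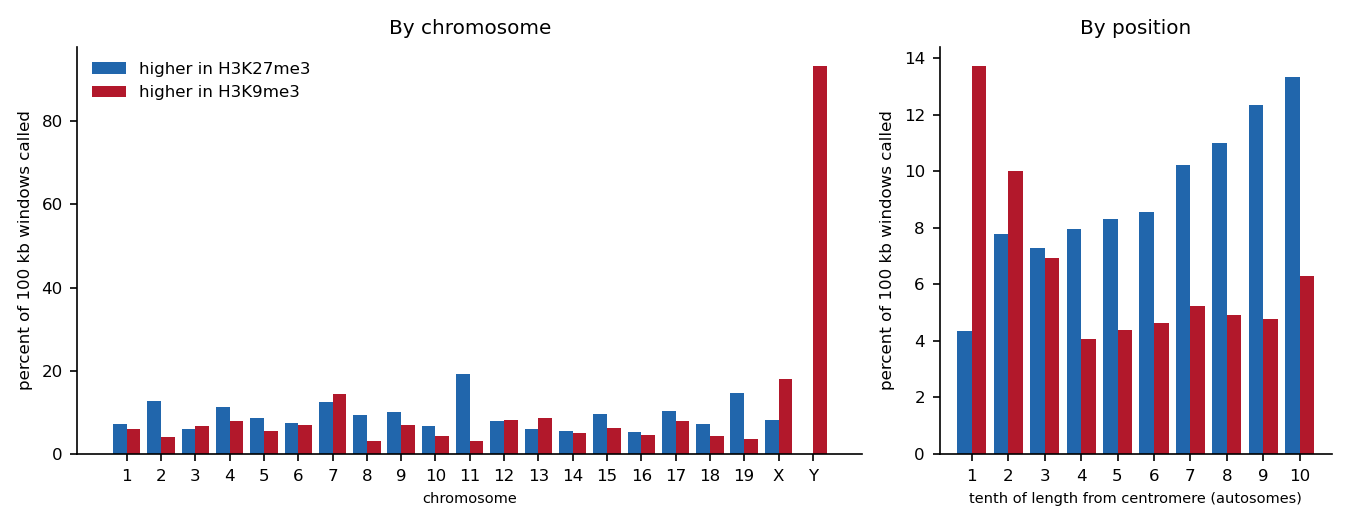
Percent of 100 kb windows called higher in H3K27me3 (blue) or H3K9me3 (red), by chromosome and by 10 parts of autosome length counted from the centromere. The Y chromosome reaches 93.1% for H3K9me3, chromosome 11 reaches 19.2% for H3K27me3, and the first part has 13.7% for H3K9me3.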

How the data were processed

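Reads were trimmed with Trim Galore, aligned to mouse genome build NCBIM37 with Bowtie2 2.2.9, and those of low mapping quality were discarded by the authors, per their methods and processing notes. The deposited values are log2 of observed over expected reads in each of 1327469 tiles of 2 kb on 22 chromosomes, as made by the authors without subtraction of the input. Their methods name tiles of 1 kb, and do not say whether duplicate reads were removed. Since the lowest values were whole multiples of 1 read, with a tile without reads written as 0.9 read, the read number of every tile was recovered.

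Reads were summed over promoters (tiles within 1 kb of the start of 26212 annotated genes), gene bodies, and windows of 10 and 100 kb. The log2 of summed reads plus a prior of 1 read, over the expected reads, was compared between 3 H3K27me3 and 3 H3K9me3 libraries with limma 3.58.1 in R 4.3.3 (lmFit, eBayes with trend, two-sided), for features with a mean of at least 5 reads. Values were adjusted by Benjamini-Hochberg over all features tested, and features with an adjusted p under 0.05 and a 2-fold difference were called. The fit was tested on simulated data. The genes named were a fixed list, the 8 protein-coding genes with the largest promoter difference in each direction, the 5 largest gene bodies and 10 kb windows by the same measure, and the top called member of each gene list. The members and lists were chosen with earlier results of these data known. Alternatives were GC correction in bins of 0.02, centring, other priors, filters, folds and promoter widths, and leaving out each library. GC correction subtracted the median of each library over the features of the same bin. Columns of *Dnmt1*-deleted cells were not used. Depth was 17557643 to 22947678 reads per ChIP library. Some items that the rule for named genes chose are not reported here.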

Additional observations from a re-analysis of the deposited data

How the results depend on the processing

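With correction for GC content, 5580 promoters were called for H3K27me3 and 6043 for H3K9me3, 3683 and 4236 gene bodies, and 1534 windows of 100 kb for H3K27me3. These calls are relative to features of like GC content. The correction also turned the promoter differences of *Kdm4b* (-0.20, limma adjusted p = 0.665) and *Rpl7* (-1.83, limma adjusted p = 7.61e-05). With no minimum fold, 2329 promoters were higher in H3K9me3, 10537 and 6417 gene bodies were higher in H3K27me3 and H3K9me3, 60912 and 96068 windows of 10 kb, and 8617 and 12180 windows of 100 kb. At 4-fold the counts were 6562 and 205 promoters, 2809 and 233 gene bodies, 7675 and 5856 windows of 10 kb, and 404 and 156 windows of 100 kb. A prior of 5 reads gave 768 promoters higher in H3K9me3, and the mean of deposited tile values gave 1447 windows of 100 kb higher in H3K27me3. At 4-fold over the input, the share of 10 kb windows was 1.29% for H3K27me3 and 0.403% for H3K9me3. Leaving out each library in turn gave 10666 to 11164 and 1142 to 1248 promoters, 6190 to 6642 and 1411 to 1668 gene bodies, 26681 to 28841 and 28753 to 32637 windows of 10 kb, and 2234 to 2507 and 1704 to 1996 windows of 100 kb. With the day and number as a replicate block, 10879 and 1158 promoters were called. Deviations of equally numbered libraries correlated at 0.21, -0.03 and 0.37, below 0.1 in 1 of 3 pairs. Those of unequally numbered libraries correlated at -0.38 to 0.20. Deviations were taken from the mean of 3 libraries, so these values are not independent of each other. Equally labelled libraries share a day, and whether they share a culture is not stated. Of 2525 values of 125 named results under the alternatives, 2434 were counted as unchanged, called or not called as in the main fit. A turn of sign between values that were not called also counted as unchanged. Many of these results were named for their large differences, so the count does not describe features in general. The causes were not tested. With a single input library, values over input carry its counting error, and promoters with few input reads are the least certain.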
